A study of Homo sapiens with 32 samples.

Results

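The RNA of THP-1 cells that carry catalytically inactive ACLY (H760A, HA) was compared with RNA of cells that carry wild-type ACLY (WT), with 4 libraries of each line after 3 hours of LPS. The 8 libraries were taken from the sample labels out of 32 in the series, and the comparison covered 12406 genes whose normalized count averaged at least 10, out of 60107 genes in the tables. After LPS, HA cells had more RNA of MHC class II genes and their activator CIITA, of many antiviral genes, and of S100A12 and LYZ than WT cells. They had less RNA of CD14, MMP9, ITGAM, LPL and AKR1C2, and of most genes on the short arm of chromosome 5. Most of these differences were also present before LPS.

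THP-1 is a human monocytic leukaemia cell line. ACLY (ATP citrate lyase) splits citrate in the cytosol into acetyl-CoA and oxaloacetate, and this acetyl-CoA feeds fatty acid synthesis, sterol synthesis and histone acetylation. The WT and HA lines were made from ACLY knockout (KO) cells by lentiviral transduction with a construct under the EF1 promoter and puromycin selection, and S455A (SA) cells, whose ACLY lacks the serine that is phosphorylated, were made the same way. Each genotype is represented by a single line in the labels. The 4 libraries of a group therefore repeat that line, and the H760A change cannot be told apart from other differences between the lines. The p-values measure the spread between repeats, pooled over all 8 groups of the series. Spread among the KO, SA and unstimulated libraries therefore enters them too, and a gene can miss the threshold although HA and WT libraries do not overlap. The labels give 100 ng/ml LPS, whereas a paragraph of the study's methods gives another concentration.

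LPS is sensed by TLR4 with its co-receptors CD14 and LY96. Signalling from the receptor induces chemokines and cytokines through NF-kB, and interferon genes through IRF factors. Secreted interferon then acts through the JAK kinases and STAT factors on interferon-stimulated genes, many of which carry an interferon-stimulated response element (ISRE) in the promoter. MHC class II molecules present peptides to T cells, and their genes depend on CIITA, which is recruited to factors bound at conserved promoter boxes, among them the Y box.

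The amino acid changes are shown first on the reference coding sequence, because they define the lines. In the GENCODE 44 transcript ACLY-201, whose protein has 1101 residues, codon 760 lies in exon 21 of 29 and codon 455 in exon 13, both on the minus strand of chromosome 17 of GRCh38. The codon for histidine 760 spans chr17:41878910-41878912 and the codon for serine 455 spans chr17:41897813-41897815. Each line below gives 27 bases of the reference in coding direction, with the codon that the mutant changes in capitals. The sequence of the constructs was not analysed here.
H760A: gtccagtttggcCATgctggagcttgt
S455A: agcaggacagcaTCTttttctgagtcc

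Promoters of 4 genes that differed between HA and WT cells after LPS are shown because motifs of the 2 main gene groups lie in them. They are RefSeq promoters of GRCh38.p14, from 250 bases before to 50 bases after the gene start. Capitals mark matches to GAAA followed by any 2 bases and GAAA on either strand, the core of the ISRE, in ISG15 (chr1:1013247-1013546, plus strand), IFI44L (chr1:78620198-78620497, plus strand) and GBP1 (chr1:89065159-89065458, minus strand). In HLA-DRB1 (chr6:32589799-32590098, minus strand) they mark CTGATTGG, a Y box.
ISG15: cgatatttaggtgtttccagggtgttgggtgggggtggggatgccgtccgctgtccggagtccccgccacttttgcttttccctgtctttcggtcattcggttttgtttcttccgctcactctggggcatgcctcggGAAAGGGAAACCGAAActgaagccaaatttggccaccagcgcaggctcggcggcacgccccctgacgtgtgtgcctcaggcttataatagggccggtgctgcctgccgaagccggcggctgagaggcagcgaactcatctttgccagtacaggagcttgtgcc
IFI44L: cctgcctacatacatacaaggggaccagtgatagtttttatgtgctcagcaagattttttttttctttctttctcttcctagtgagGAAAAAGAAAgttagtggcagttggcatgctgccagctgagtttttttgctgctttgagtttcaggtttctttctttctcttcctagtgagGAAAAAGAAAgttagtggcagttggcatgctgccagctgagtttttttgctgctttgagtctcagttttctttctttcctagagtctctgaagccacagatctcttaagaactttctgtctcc
GBP1: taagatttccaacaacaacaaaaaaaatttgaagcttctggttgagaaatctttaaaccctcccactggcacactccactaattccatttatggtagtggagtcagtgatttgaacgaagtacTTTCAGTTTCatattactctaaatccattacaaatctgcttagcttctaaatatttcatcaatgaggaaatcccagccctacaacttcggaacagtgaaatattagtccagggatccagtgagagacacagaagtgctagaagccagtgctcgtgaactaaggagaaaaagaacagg
HLA-DRB1: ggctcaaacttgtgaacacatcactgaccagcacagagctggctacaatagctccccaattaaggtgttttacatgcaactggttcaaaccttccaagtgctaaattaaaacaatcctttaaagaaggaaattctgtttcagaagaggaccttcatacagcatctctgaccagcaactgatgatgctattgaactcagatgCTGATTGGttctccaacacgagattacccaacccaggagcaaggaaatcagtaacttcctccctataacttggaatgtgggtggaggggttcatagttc

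Reads counted on genes ran from 6504099 to 12417589 in the WT libraries and from 8701862 to 12964789 in the HA libraries after LPS. Ribosomal protein genes took 13.7% to 15.7% of the reads in WT and 9.47% to 12.6% in HA, and mitochondrial genes 3.51% to 6.11% and 5.60% to 8.36%. The groups did not overlap in the first share, and its part in the results below was not tested. HA LPS replicate 1 had the fewest genes with a read (14953) of the 8 libraries and, with WT LPS replicate 3, lay farthest from its group. The monocyte genes LYZ, SPI1, FCER1G and CD68 were detected in each of the 8 libraries, none of which held a read of the T cell genes CD3D, CD3E or CD3G, and the erythroid and megakaryocyte list had 0 of 9 genes above the minimum count. ACLY itself had 117, 97.1, 124 and 101 normalized counts in WT LPS replicates 1 to 4 and 60.3, 64.8, 74.3 and 88.3 in HA LPS replicates 1 to 4, in the order of the replicate numbers, which holds for all such lists below. The HA libraries were all below the WT libraries, yet the log2 difference of -0.61 did not pass the test (standard error 0.28, limma adjusted p = 2.66e-01). KO cells after LPS had 68.8, 99.9, 77.9 and 60.3 ACLY counts, which overlap with HA, so the RNA level of ACLY does not check the labels. The reads come from the 3′ end of transcripts, so what share of them came from a construct is not known.

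Of the 12406 genes tested, 250 differed between HA and WT cells after LPS at a limma adjusted p below 0.01 (2.02% of the genes tested). Of these, 144 were up-regulated in HA and 106 down-regulated (1.16% and 0.854% of the genes tested). Whether called or not, 47.4% of the genes tested had a higher mean in HA. These shares over all genes stand beside every list count below. Values are normalized counts on a scale shared by all 32 libraries, and differences are HA minus WT on the log2(normalized count + 1) scale, where the change of weakly expressed genes comes out too small. On the scale of the deposited tables, which were normalized line by line, a gene shifts by 0.16 toward HA, and 280 of 352 called genes were up-regulated in place of 144 of 250. Among the called genes, 91 rose by at least 1 on the log2 scale and 65 fell by at least 1, while 26 rose and 12 fell by at least 2. Without HA LPS replicate 1 the count was 155, and without WT LPS replicate 1 it was 161. In bulk RNA, fewer cells that express a gene and less RNA per cell cannot be told apart.

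MHC class II genes stood out among the genes up-regulated in HA cells. Of 15 genes of class II presentation that were tested, 10 rose and 0 fell, with a median log2 difference of 1.75 compared with -0.03 over all genes tested. CIITA, the master activator of class II transcription (chr16:10866222-10943021), had 14.96, 14.7, 17.6 and 23.0 normalized counts in the WT libraries and 240.1, 147, 152 and 123 in the HA libraries. Every HA library was several times above every WT library, a log2 difference of 3.14 (standard error 0.43, limma adjusted p = 2.27e-05).

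The chains of the class II dimers moved in the same direction. HLA-DRA, the alpha chain of HLA-DR, had 271, 345, 239 and 423 counts in WT and 2702, 2873, 2679 and 4184 in HA. The lowest HA library was above the highest WT library, and the difference was 3.29 on the log2 scale (standard error 0.30, limma adjusted p = 1.82e-08). HLA-DPA1, the alpha chain of HLA-DP, had 38.9, 37.3, 39.9 and 44.4 counts in WT and 314, 300.3, 385 and 491 in HA, and HLA-DPB1, its beta chain, rose by 3.40 in the same libraries. HLA-DRB1 and HLA-DRB5, beta chains of HLA-DR, rose by 1.81 and 1.57. HLA-DQA1 had 7.48, 6.94, 0 and 0 counts in WT and 26.5 to 70.3 in HA, so the size of its rise depends on the pseudocount. HLA-DQB1, its partner, had 290.0 to 630.0 counts in HA compared with 123 to 145 in WT, without overlap, but did not pass the test (1.62, limma adjusted p = 4.98e-02).

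Genes that load class II molecules were up-regulated too. CD74, the invariant chain that guides class II molecules to the endosome, had 1908, 1746, 2565 and 2048 counts in WT and 8129, 5818, 7118 and 6731 in HA, a log2 difference of 1.75 (standard error 0.19, limma adjusted p = 6.57e-07). HLA-DMA and HLA-DMB, which exchange the CD74 fragment for a peptide, rose by 1.52 and 2.99. RFX5, RFXANK and RFXAP, subunits of the DNA-binding complex on which CIITA assembles, had differences of 0.13, -0.14 and 0.52. They were not called, nor was the protease CTSS at 0.31. Leaving out any 1 of the 8 libraries left 10 called genes in this list. Without HA LPS replicate 1 and WT LPS replicate 3 together 7 were called, and with a replicate block on the compared groups alone 4. Alleles of the HLA genes differ and several of these genes are alike in sequence, so reads can be lost or counted for a relative.

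**Figure D1:**
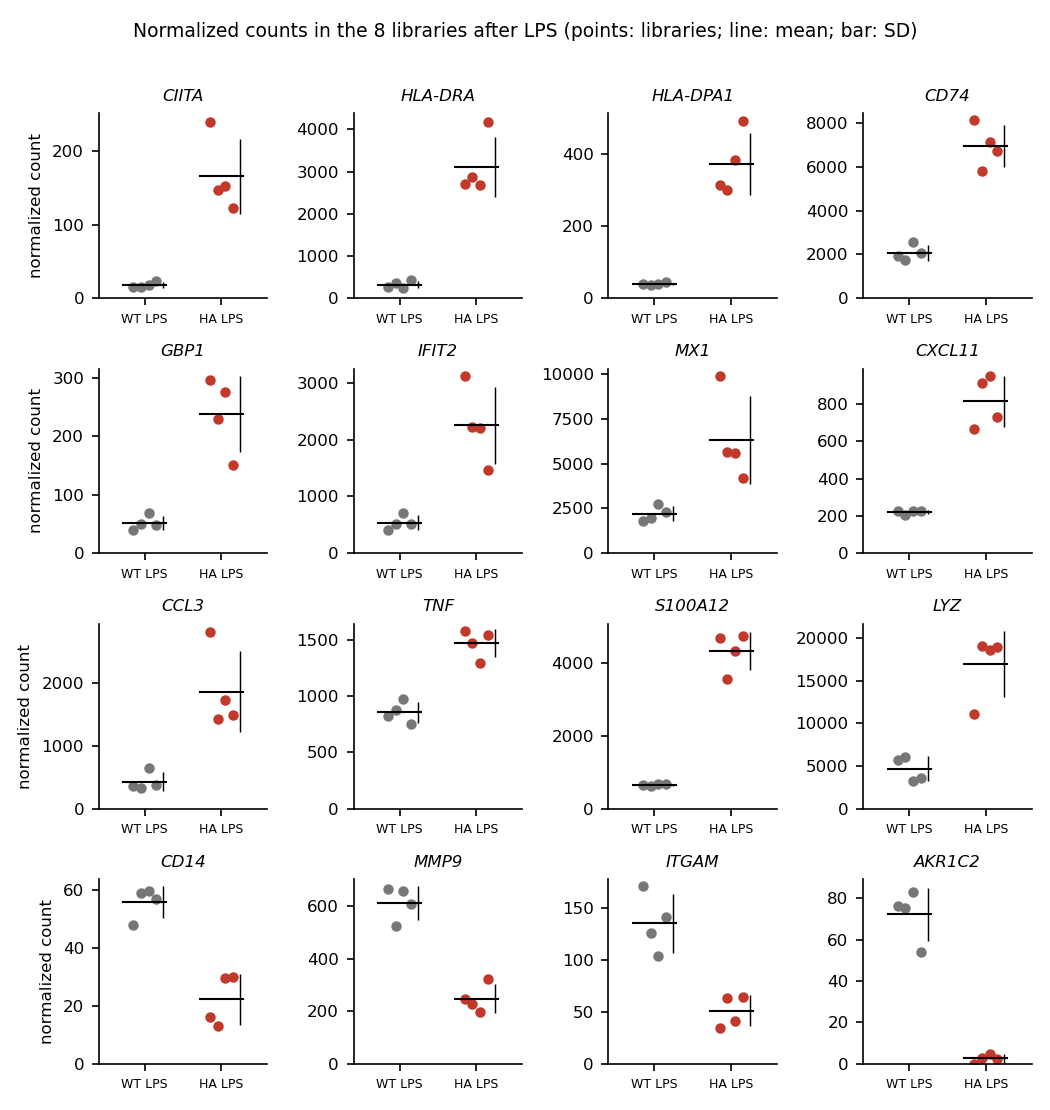
Normalized counts (linear axes from 0) of 16 genes in the 4 WT and 4 HA libraries after LPS. Points are libraries, lines are group means and bars the SD. In the upper 3 rows all HA points lie above the WT points, as for CIITA with 123 to 240.1 counts in HA and 14.7 to 23.0 in WT, and in the bottom row they lie below them.

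Interferon-stimulated genes made up the second large group. Of 47 antiviral effectors tested, 16 rose and 0 fell, 46 had a higher mean in HA, and the median log2 difference was 0.89. In 33 of the 47, every HA library was above every WT library, compared with 7.09% of all genes tested. The count of 16 fell to 8 without HA LPS replicate 1 and to 9 without WT LPS replicate 1, and was 11 to 15 without any other single library. IFIT2, which binds viral RNA, had 404, 519, 713 and 515 counts in WT and 3112, 2227, 2208 and 1457 in HA, a log2 difference of 2.04 (standard error 0.31, limma adjusted p = 7.94e-05). HA LPS replicate 1 was the highest library of IFIT2, as of many genes in this group.

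The GTPase MX1 had 1796, 1984, 2769 and 2319 counts in WT and 9889.7, 5628, 5569.7 and 4190.0 in HA (log2 difference 1.46). The groups did not overlap, but the call was lost without HA LPS replicate 1 (limma adjusted p = 1.76e-02) and without WT LPS replicate 1 (1.19e-02). TNFSF10, the death receptor ligand TRAIL, rose by 1.66, from 408 to 502 counts in WT to 1215 to 1706 in HA. IFI6 and IFI44L rose by 1.47 each, OAS2, an enzyme that makes the activator of RNase L, by 1.13, and HERC5, a ligase for ISG15, by 1.21, and these calls held without any single library. The ubiquitin-like protein gene ISG15 rose by 1.32 and IFITM3, which blocks viral entry, by 1.80, but their calls were lost in 5 and 7 of the 8 fits without a library, with the highest adjusted p without HA LPS replicate 1 (limma, 3.10e-02 and 5.86e-02). IFITM3 had 44493 counts in that library and 15016 to 16956 in the other HA libraries, and it resembles its neighbours IFITM1 and IFITM2. IFIT1, IFIT3, RSAD2, IFI44 and EPSTI1 were above all WT libraries in all HA libraries without passing the test, with log2 differences of 1.18, 0.79, 0.71, 0.75 and 1.08.

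Upstream of these genes, 3 of 20 genes of interferon signalling rose and 0 fell, with a median of 0.19. IRF1, a transcription factor that LPS and interferon induce, had 907, 1049, 1058 and 1116 counts in WT and 2276, 2514, 2416 and 2043 in HA. All HA libraries were above 2000, and the log2 difference was 1.16 (standard error 0.17, limma adjusted p = 7.41e-05). IRF2, a factor of the same family, rose by 0.80, but its call was lost in 7 of the 8 fits without a library, and 1 of the 3 calls was left without HA LPS replicates 1, 2 or 3 or WT LPS replicates 1 or 4. The receptor chains IFNAR1, IFNAR2, IFNGR1 and IFNGR2 had differences of 0.05, 0.44, -1.04 and -0.43 and were not called. IFNB1, the gene of interferon beta, had at most 2.21 normalized counts in any of the 8 libraries. IFNL1, another interferon gene, had 3.48 to 34.6 counts in HA and 0 to 5.20 in WT. The groups overlapped at these low counts, and IFNL1 was not called (log2 difference 2.19, limma adjusted p = 9.73e-02).

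Of 6 guanylate-binding proteins, GTPases that attack intracellular pathogens, 2 rose and 0 fell, with a median of 0.99. GBP1 had 40.4, 50.3, 69.2 and 48.3 counts in WT and 296, 230.4, 276 and 151 in HA, a log2 difference of 2.15 (standard error 0.30, limma adjusted p = 2.27e-05). GBP2 rose by 1.02, while GBP4 and GBP5, at 1.06 and 0.95, were separated in all libraries but not called. Among 11 nucleic acid sensors, 4 rose and 0 fell, with a median of 1.04. AIM2, a sensor of cytosolic DNA, rose by 2.21, from 19.4 to 43.4 counts in WT to 101 to 196 in HA. IFIH1, a sensor of double-stranded RNA, rose by 1.44, TLR7, a sensor of single-stranded RNA in endosomes, by 1.67, and IFI16 by 1.19. Of the 4, 2 were left without HA LPS replicates 1, 2 or 3 or WT LPS replicates 1, 2 or 4. CGAS and STING1, the enzyme and the adaptor of the DNA sensing pathway, were at 0.67 and 0.27 and were not called.

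The MHC class I list had fewer calls. Of its 20 genes, 2 rose and 0 fell, with a median of 0.22. In 6 of them every HA library was above every WT library, compared with 7.09% of all genes tested. HLA-E, a ligand of receptors on natural killer cells, had 771, 754, 808 and 755 counts in WT and 1259.7, 1185, 1302 and 1110.1 in HA (log2 difference 0.65, standard error 0.10, limma adjusted p = 8.93e-05). The proteasome activator subunit PSME1 rose by 0.51, a call that was lost without HA LPS replicates 1 or 3 or without any 1 WT library. HLA-F, the peptide transporter subunit TAP1, the loading chaperone TAPBP and the immunoproteasome subunit PSMB9 were separated at 0.97, 0.77, 0.67 and 0.58, and HLA-B, HLA-C and B2M had differences of 0.17, -0.13 and 0.28, and NLRC5, the class I counterpart of CIITA, had 0.05. None of these was called.

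The promoter motifs were counted in the genes with a RefSeq promoter, 9570 of the 12406 tested and 109 of the 144 that rose. The ISRE core occurred in 15 of the 109 (13.8%), in 1 of 87 promoters of genes that fell (1.15%) in 2.85% of the promoters of genes tested and in 3.57% of all 35116 promoters of the table. TTCNNNGAA, the core of the interferon gamma element known as GAS, occurred in 8.26% of the promoters of genes that rose, 9.2% of those that fell, 6.31% of those tested and 7.66% of all. CTGATTGG on either strand occurred in 8 promoters of genes that rose (7.34%), among them HLA-DRB1, HLA-DRB5 and HLA-DMA, in 0 of those that fell, in 5.72% of those tested and in 3.97% of all. Whatever their change, 27 of 38 antiviral effectors with a promoter held the ISRE core and 5 of 12 class II genes the Y box. Matches may overlap, as those of ISG15 do. They describe letters in a window and not binding.

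Chemokines and cytokines were mostly higher in HA cells, with few calls. Of 10 chemokines tested, 2 rose and 0 fell (median 1.11). CXCL11, a ligand of the receptor CXCR3, had 224, 205, 228 and 228 counts in WT and 666, 913, 948 and 728 in HA, a log2 difference of 1.86 (standard error 0.38, limma adjusted p = 2.51e-03). CCL3, which attracts monocytes and T cells, rose by 2.11, with 335 to 654 counts in WT and 1424 to 2814 in HA. CCL3L1, a near-identical copy whose reads can be exchanged with those of CCL3, rose by 2.04. Without WT LPS replicate 2, neither chemokine of the list was called (limma adjusted p = 1.06e-02 for CXCL11 and 1.55e-02 for CCL3), and CXCL11 also lost its call without HA LPS replicates 2 or 3, and CCL3 without HA LPS replicate 1 or WT LPS replicates 1 or 4. The other CXCR3 ligands CXCL9 and CXCL10 were above WT in all HA libraries at 2.21 and 1.34, as was CCL4 at 1.36, and none of these passed the test.

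CCL2, which attracts monocytes, had 537, 631, 50.4 and 277 counts in WT and 63.8, 301, 92.1 and 345 in HA. The groups overlapped widely (log2 difference -0.74, standard error 1.25, limma adjusted p = 8.05e-01). CCL5 differed by 0.15. Among 6 cytokines, TNF, the prototype inflammatory cytokine, rose by 0.79, with 824, 875, 979 and 750.4 counts in WT and 1587, 1477, 1299 and 1543 in HA, without overlap (standard error 0.15, limma adjusted p = 1.54e-03). Without WT LPS replicate 4 its adjusted p was 1.09e-02. IL1B was at 1.06 without a call, and IL6 had 0 counts in all 8 libraries. Of 21 genes of NF-kB and its feedback, 19 had a higher mean in HA and 0 were called, with a median of 0.56. The inhibitors NFKBIA and TNFAIP3 were at 0.26 and 0.72.

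At the receptor, CD14 fell. It had 47.9, 59.0, 59.8 and 57.1 counts in WT and 16.2, 13.2, 29.7 and 30.0 in HA. No HA library reached the lowest WT library, and the log2 difference was -1.37 (standard error 0.26, limma adjusted p = 1.13e-03), a call that held without any single library. The call was lost without HA LPS replicate 1 and WT LPS replicate 3 together, and with a replicate block on the compared groups alone. CD14 lies on the long arm of chromosome 5 (chr5:140631728-140633700). TLR4 and LY96, at means of 13.2 and 13.2 counts in WT and 5.48 and 6.87 in HA, were not called. Of 20 genes of the LPS receptor and its adaptors, CD14 was the one called, and the median was -0.05. MYD88 and TICAM1, the adaptors of TLR4, had -0.55 and -0.04. None of 7 inflammasome genes was called (median 0.00).

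Genes that mark myeloid cells moved in both directions. S100A12, a calcium-binding alarmin of granulocytes and monocytes, had 651, 624, 680.0 and 686 counts in WT and 4679, 3576, 4339.7 and 4739 in HA, 6.52-fold higher. Its log2 difference of 2.71 had the smallest adjusted p of all genes named here (standard error 0.12, limma adjusted p = 9.09e-16). LYZ, the gene of lysozyme, rose by 1.88, although HA LPS replicate 1, at 11112 counts, was far below the other HA libraries (18595 to 19036), and WT libraries had 3227 to 6089.6. S100A8 and S100A9, the subunits of calprotectin, were higher in all HA libraries at 0.85 and 1.29 without passing the test. In the list of 15 S100 and granule genes, 2 rose and 0 fell, with a median of 0.42.

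Of 14 monocyte markers, LYZ rose and CD14 and ITGAM fell. ITGAM, the integrin chain CD11b, had 171, 126, 103 and 141 counts in WT and 34.8, 63.3, 41.6 and 64.3 in HA (log2 difference -1.41, limma adjusted p = 2.64e-03), and its call was lost without HA LPS replicates 1 or 3 or WT LPS replicates 1 or 4. SPI1, the lineage factor PU.1, CSF1R and CD68 were not called, at 0.11, 0.86 and 0.16. MMP9, a gelatinase of neutrophil granules that monocytes also make, fell by 1.32, from 526 to 666 counts in WT to 198 to 324 in HA. It is 1 of 3 granulocyte markers tested out of 8, and the list's mean log2 level was 2.78 to 3.11 over the HA libraries and 3.22 to 3.35 over the WT libraries, with FCGR3B, CEACAM8 and MMP8 at 0 counts in all 8 libraries. Of 13 macrophage and dendritic markers 5 were tested and 0 called (mean log2 level 2.19 to 2.87 in HA and 2.34 to 2.52 in WT), and of 12 lymphocyte markers 2 were tested and 0 called (1.31 to 1.61 and 1.48 to 1.92). AXL, a receptor kinase that takes up apoptotic cells, rose by 2.13, and FCER2, the low-affinity IgE receptor, by 2.07, the latter with 168 counts in HA LPS replicate 1 and 33.4 to 56.5 in the other HA libraries. Without that library FCER2 had an adjusted p of 7.38e-02.

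**Figure D2:**
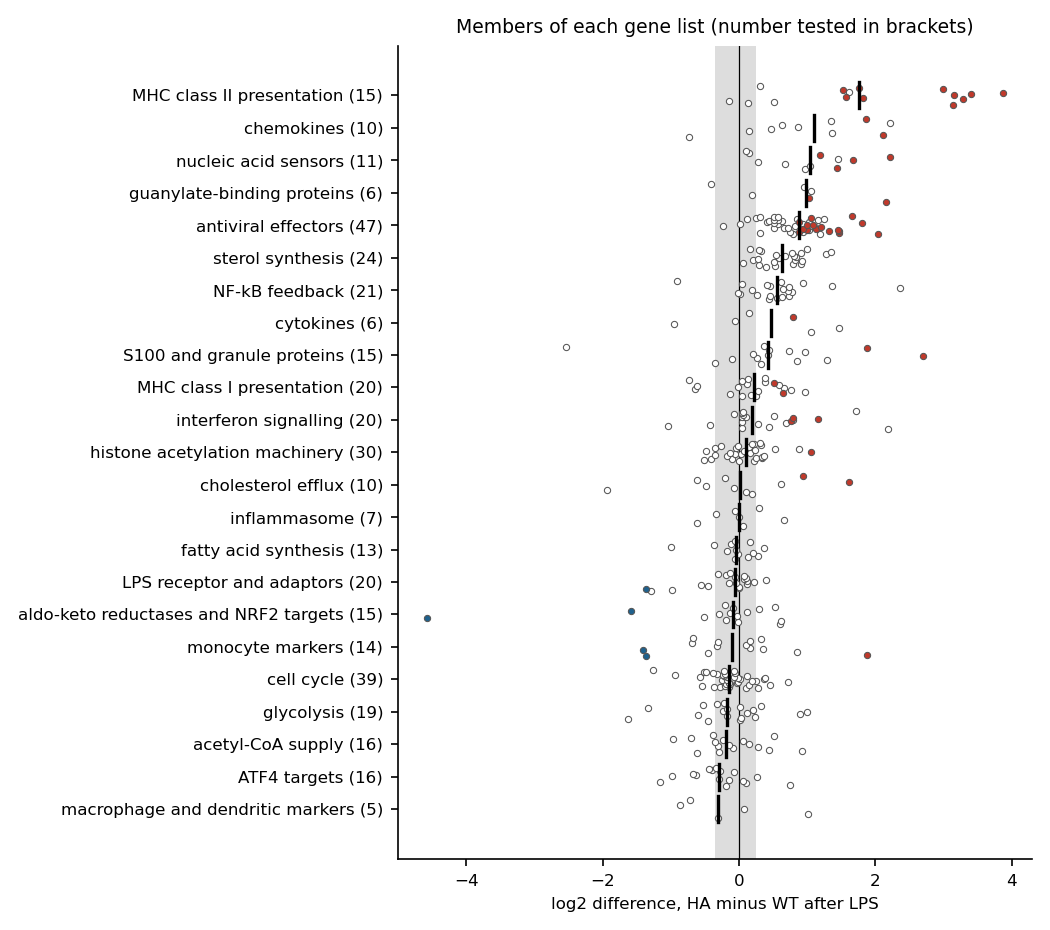
Log2 differences, HA minus WT after LPS, of the tested members of each gene list with at least 5 of them. Each circle is a gene, filled red where it rose and blue where it fell at an adjusted p below 0.01, black ticks are list medians, and the grey band spans the lower to the upper quartile of all 12406 genes. Class II presentation has the highest median (1.75) and 10 red circles, and no gene of sterol synthesis is filled although its 24 circles lie to the right of 0.

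Genes of the metabolism that uses acetyl-CoA showed few calls. None of 16 genes of acetyl-CoA supply passed the test (median -0.19). ACSS2, which makes acetyl-CoA from acetate, had 336 counts in HA LPS replicate 1, 147 to 169 in the other HA libraries and 93.7 to 108 in WT (log2 difference 0.93, limma adjusted p = 8.07e-02). None of 13 genes of fatty acid synthesis was called (median -0.04), and FASN, the fatty acid synthase, was at 0.28. All 24 genes of sterol synthesis had a higher mean in HA, where 47.4% of all genes tested did. In 13 of them every HA library was above every WT library, compared with 7.09% of all genes tested. Their median was 0.63, and 0 were called (limma), with 2 called on the deposited scale. SQLE, the squalene epoxidase, had 1942 to 2857 counts in HA and 1034 to 1415 in WT (0.80, limma adjusted p = 3.46e-02).

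Of 10 genes of cholesterol efflux and transport, 2 rose and 0 fell (median 0.02). APOC1, a lipoprotein component, rose by 1.62, from 91.9 to 147 counts in WT to 248 to 441 in HA, and NPC2, which carries cholesterol out of lysosomes, by 0.94, a call that was lost without HA LPS replicate 1 or WT LPS replicates 2, 3 or 4. ABCA1, the exporter of cholesterol to apolipoproteins, had 34.4, 60.7, 52.8 and 36.5 counts in WT and 1.16, 18.4, 27.7 and 16.3 in HA. The groups did not overlap, but the difference of -1.93 did not pass the test (standard error 0.67, limma adjusted p = 1.10e-01). LPL, which releases fatty acids from lipoproteins, fell by 1.89, with 229 to 257 counts in WT and 51.0 to 83.2 in HA. Of 30 writers, erasers and readers of histone acetylation, HDAC6, a deacetylase of tubulin, rose by 1.06, and its call was lost in 7 of the 8 fits without a library. The acetyltransferase EP300 was at -0.01.

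Other pathways contained single large falls. AKR1C2, a steroid reductase, had 76.3, 75.4, 83.2 and 53.9 counts in WT and 0, 2.94, 4.95 and 2.57 in HA. Its log2 difference of -4.58 (limma adjusted p = 9.08e-05) depends on the pseudocount, and reads of near-identical AKR1C genes can be split between them. SLC7A11, the cystine transporter that NRF2 and ATF4 induce, fell by 1.58, with 602 to 1132 counts in WT and 210.0 to 464 in HA, and its call was lost without HA LPS replicates 1 or 4 or WT LPS replicate 2. These were the 2 called genes of 15 aldo-keto reductases and NRF2 targets, whose median was -0.09. NQO1 and GCLM, 2 other NRF2 targets, were at -0.52 and -0.13 and not called. None of 16 ATF4 targets (median -0.29), 39 cell cycle genes (-0.15) or 19 genes of glycolysis (-0.17) was called.

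By the size of the change, the genes that rose most with at least 50 counts in HA were CLSTN2, a cadherin family member of synapses (3.53, from 6.34 to 18.8 counts in WT to 96.0 to 162 in HA), followed by HLA-DPB1, HLA-DRA, HLA-DPA1, CIITA and S100A12. The other genes among the 20 largest rises were LTK, ZNF608, SPOCK2, NAV3, CAV1, AHNAK2, AIM2, GBP1, AXL, GLT1D1, CCL3, FCER2, CST7 and CCL3L1, at 2.04 to 2.55, of which LTK and ZNF608 lost their call in 5 of the 8 fits without a library and FCER2 in 7. The largest falls after AKR1C2 were VAT1L at -3.32, BEX1 at -2.97, CXCL13 at -2.95, ZNF462 at -2.95 and SLC38A1 at -2.45, of which CXCL13 lost its call without HA LPS replicates 1 or 2 or WT LPS replicate 4. BEX1, a small adaptor protein best known from neurons, had 573, 529, 477 and 563 counts in WT and 47.6, 67.0, 95.1 and 66.9 in HA. SLC38A1, a glutamine transporter, had 469 to 760.4 counts in WT and 85.8 to 128 in HA, without overlap. ALOX5AP, which presents arachidonic acid to the lipoxygenase that starts leukotriene synthesis, fell by 1.88, with 657 to 1028 counts in WT and 153 to 281 in HA.

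Of the 20 largest falls, CCL28, OXCT1, RAI14 and DAB2 lie on the short arm of chromosome 5, and this led to a description of that arm, chosen after the values were seen and given without a test. OXCT1, the enzyme that activates ketone bodies (chr5:41730065-41870425), had 326, 371, 239 and 306 counts in WT and 75.4, 83.9, 89.1 and 74.6 in HA. RAI14, an actin-associated protein, had 332 to 428 counts in WT and 73.7 to 126 in HA. Of the 97 genes tested on the arm, 92 had a lower mean in HA, 27 fell and 0 rose, which is 27.8% of the arm compared with 0.854% of all genes tested and 0.642% of the genes elsewhere. The median log2 difference was -0.92, and the quartiles of the 97 genes were -1.33 and -0.63.

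The lower values stopped between the arms. The last tested gene of the arm starts at 44.8 Mb, the next tested gene, EMB, at 50.4 Mb, and the 461 genes tested on the long arm had a median of -0.03, with 4 called in each direction. Of 238 stretches of 10 Mb with at least 20 tested genes across the genome, the 3 lowest medians were those of the short arm of chromosome 5 (-1.13, -0.88 and -0.86), and the next lowest was -0.38. The 27 genes that fell include CCT5, a chaperonin subunit, DROSHA, which cuts primary microRNAs, NNT, which makes mitochondrial NADPH, MRPS30 of the mitochondrial ribosome, and SUB1, a transcription coactivator.

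Genes of the short arm took 1.34%, 1.38%, 1.10% and 1.30% of the reads in the WT libraries after LPS and 0.523%, 0.617%, 0.591% and 0.615% in the HA libraries. The HA share was lower in every library, and the long arm took a mean of 3.42% and 3.36%. Without LPS the short arm took 1.14% to 1.32% of the reads in WT and 0.519% to 0.592% in HA. Among the lines compared with WT after LPS, KO cells had 0.541% to 0.650% and SA cells 1.02% to 1.28%, so HA resembled KO and SA resembled WT in this share. Over 19 alternative settings the median of the arm lay between -1.02 and -0.76. The number of its genes that were called ran from 0 with a replicate block on the compared groups alone to 65 with library weights. DNA was not measured, and the arm cannot be told apart from the genotype as a difference between these lines.

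**Figure D3:**
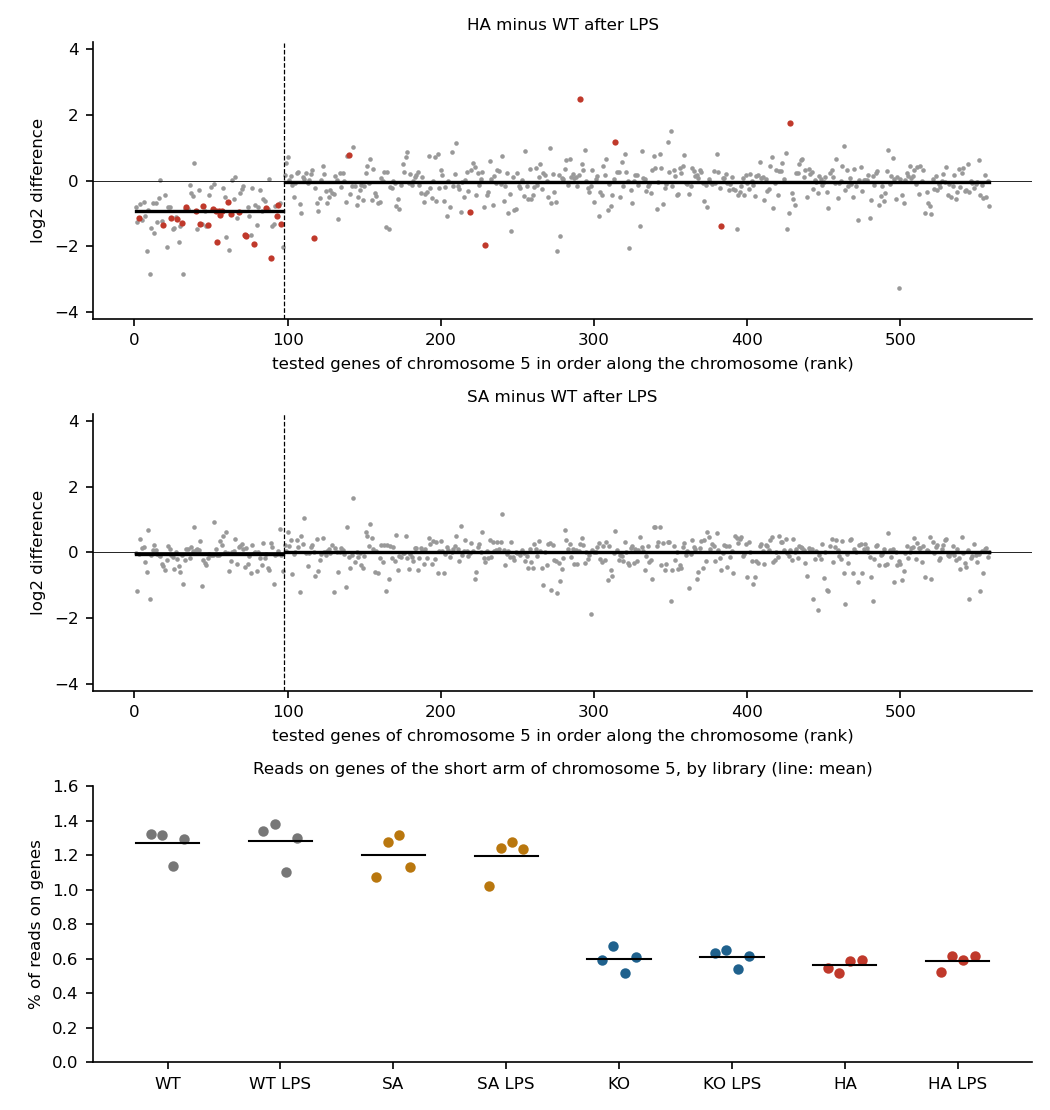
Log2 differences of the genes tested on chromosome 5, HA minus WT and SA minus WT after LPS, in the order of their position, and the percent of reads on short arm genes in each library of the 8 groups. Red points were called, the dashed line separates the arms and black lines are medians. HA minus WT has a median of -0.92 on the short arm and -0.03 on the long arm, SA minus WT has -0.05 and 0.02, and the HA and KO libraries lie below 0.7% where the WT and SA libraries lie above 1%.

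Most of the differences were present without LPS. Unstimulated HA and WT cells, measured in 8 other libraries, differed in 313 genes (limma adjusted p below 0.01, 2.52% of the genes tested), and in 187 to 196 genes without HA replicates 1 or 2 or WT replicates 1, 2 or 4. Of the 250 genes called after LPS, 184 passed the test without LPS as well, with an unchanged sign, and the sign was shared by all 250. HLA-DRA had 353.6, 324, 229.6 and 447 counts in unstimulated WT cells and 1926.7, 2437, 2399 and 3969.5 in HA cells, a log2 difference of 2.97 that lies beside 3.29 after LPS. CIITA differed by 2.72 without LPS and S100A12 by 2.64. IFIT2 had 35.8 to 71.7 counts in unstimulated WT cells and 101 to 213 in HA cells, far below its counts after LPS, with a difference of 1.56.

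The change of the difference with LPS was tested as an interaction of line and LPS. No gene passed (limma adjusted p below 0.01, smallest adjusted p 1.00), and voom on recovered reads also called 0. Of 12406 genes, 142 had an unadjusted p below 0.05, fewer than that limit alone would give if no gene changed. The fit did not pair libraries with and without LPS. A lack of calls here does not show that LPS left the differences unchanged. CD14 was among 6 called genes with an unadjusted p above 0.05 without LPS. It had 57.3, 92.9, 95.2 and 87.5 counts in unstimulated WT cells and 81.3, 95.8, 60.2 and 54.7 in HA cells, so that the groups overlapped (log2 difference -0.20, limma adjusted p = 6.50e-01). After LPS the groups were separated, but the change with LPS did not pass the test (interaction -1.17, limma adjusted p = 1.00). STAP1, an adaptor of receptor tyrosine kinases, rose after LPS by 1.55 and had 0.49 without it. ZNF551, AARD, EPHB3 and NIP7 fell after LPS and had unadjusted p-values above 0.05 without it, and the calls of all these genes except CD14 were lost in at least 5 of the 8 fits without a library.

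**Figure D4:**
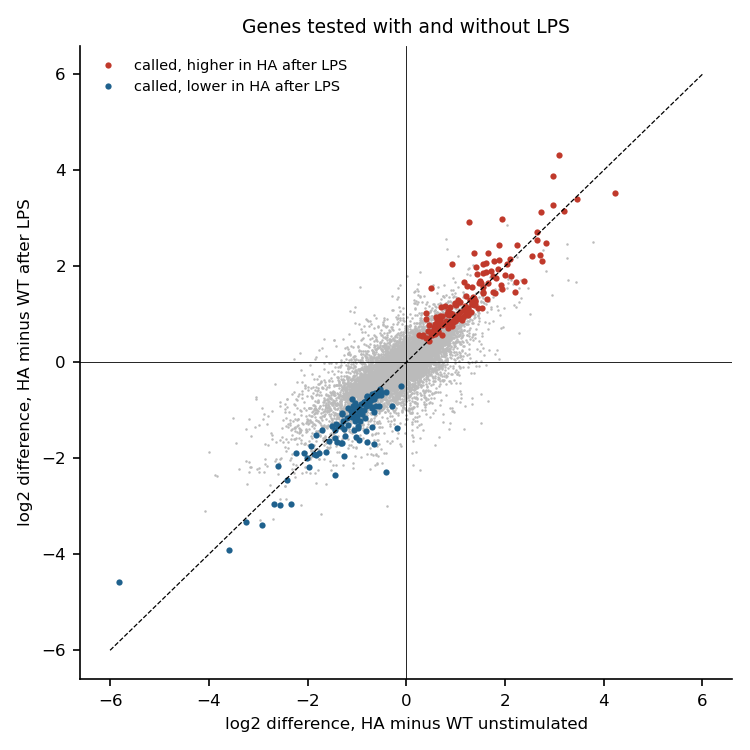
Log2 difference HA minus WT of each tested gene after LPS (vertical axis) against the difference without LPS (horizontal axis), from separate libraries. The dashed line marks equal differences. Genes called after LPS are coloured, and all 250 have the same sign on both axes, with CD14 at -0.20 without and -1.37 after LPS.

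HA cells were also set beside KO cells after LPS, as cells with an inactive and with an absent enzyme. The study describes lentiviral transduction and puromycin selection for HA cells and not for KO cells. The state of the enzyme and this treatment cannot be told apart here. This comparison shares the HA libraries with the one above. Of 12406 genes, 1 differed (0.00806%), while 1308 had an unadjusted p below 0.05 and voom called 14. IFI44L, an interferon-stimulated gene, had 6253, 5409, 3627 and 4116 counts in KO and 2439, 1864, 1708 and 1588 in HA, and 738, 650.3, 626 and 702 in WT. HA lay between KO and WT without overlap, and was below KO by a log2 difference of -1.34 (standard error 0.20, limma adjusted p = 5.28e-03). IFI44L lost its call without HA LPS replicates 2, 3 or 4 or KO LPS replicates 1 or 2. In these fits 0 genes were called, except for another gene without KO LPS replicate 1. The count was 2 without HA LPS replicate 1 and 3 without KO LPS replicates 3 or 4. A p above the threshold does not show that the lines act alike.

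The next genes by p were GBP1, CD14, MMP9 and HERC5, each with a limma adjusted p of 1.34e-02. GBP1 had 1012, 709, 898 and 464 counts in KO, against 151 to 296 in HA. CD14 had 40.3, 63.0, 63.0 and 86.1 in KO, against 13.2 to 30.0 in HA, and KO differed from WT by 0.13 where HA differed by -1.37. MMP9 had 502 to 725 counts in KO and 198 to 324 in HA, with KO at -0.04 from WT. None of the class II genes was called in HA minus KO, where the 15 tested had a median of -0.10, with HLA-DQA1 lowest at -1.07, CIITA at -0.09 and RFXAP highest at 0.46. The list medians, KO minus WT and HA minus WT, were 1.71 and 1.75 for class II presentation, 1.63 and 0.89 for antiviral effectors, 2.93 and 1.11 for chemokines, and 0.51 and 0.63 for sterol synthesis. These pairs share the WT libraries and were not tested against each other.

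**Figure D5:**
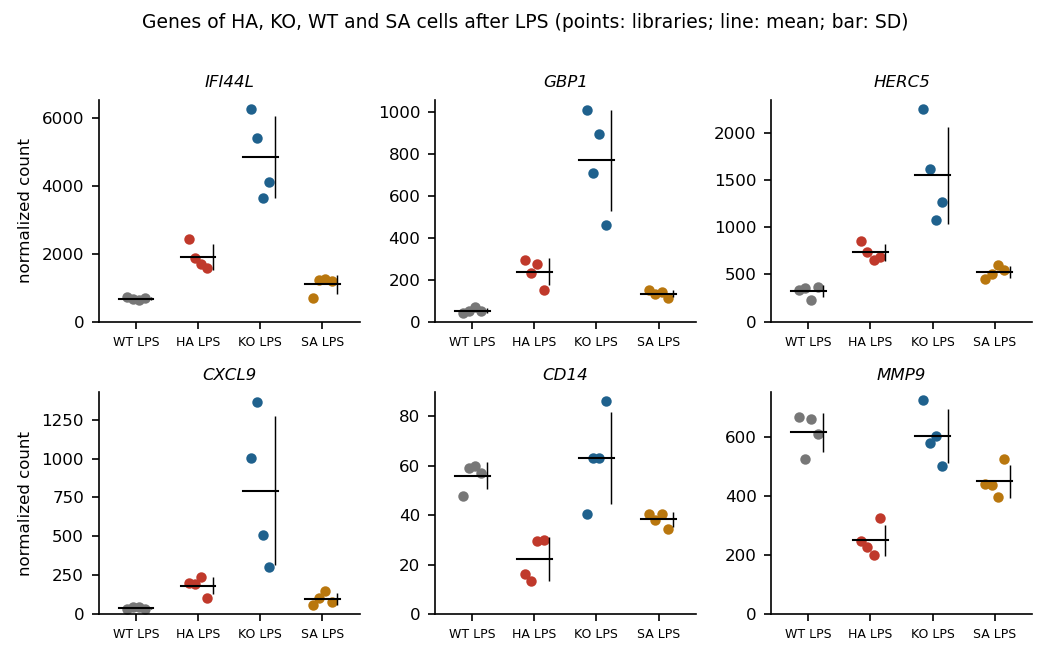
Normalized counts (linear axes from 0) of 6 genes in the WT, HA, KO and SA libraries after LPS, with points for libraries, lines for means and bars for the SD. IFI44L has 1588 to 2439 counts in HA between 626 to 738 in WT and 3627 to 6253 in KO, and CD14 is lowest in HA.

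A group of LPS-induced genes was taken from the SA line, which shares no library with HA or WT. LPS changed 61 genes in SA (limma adjusted p below 0.01), 58 of them upward (0.468% of the genes tested). In SA LPS replicate 1, CIITA had 98.4 counts where the other SA LPS libraries had 12.8 to 25.6. AKR1C2 had 3.47 counts in it where they had 54.7 to 73.8, so that this library stood apart, toward HA in both genes. Without SA LPS replicate 1, 53 genes were called, 46 of them among the 61, and without any single SA library the count was 45 to 59. The values below were not recomputed without SA LPS replicate 1. Of the 58 induced genes, 55 had a higher mean in HA than in WT after LPS, and 19 rose in that comparison, with a median of 0.78. Over all genes tested, 47.4% had a higher mean in HA, 1.16% rose and the median was -0.03. Their mean log2 level was 8.36, 8.54, 8.37 and 8.30 in the WT libraries after LPS and 9.36, 9.33, 9.26 and 9.10 in the HA libraries. It was 6.58 to 6.94 in WT and 7.28 to 7.50 in HA without LPS, so the lines were separated at both times. Among the 144 genes that rose in HA after LPS, 19 were LPS-induced in SA (13.2%), and among the 106 that fell there was 1 (0.943%).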

How the data were processed

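QuantSeq 3′ RNA sequencing was done on 32 libraries, 4 for each of 8 groups. The authors processed the reads with bcl2fastq, Bbduk, STAR on GRCh38 and HTSeq-count, used DESeq2, and deposited normalized counts, per the file headers and methods. That these were normalized line by line was inferred here, because their factors matched median-of-ratios factors computed within each line. Such a scale hides a shift between lines, so whole reads were recovered (100.0% of values within 0.05 of a whole number) and rescaled by median-of-ratios factors over the 32 libraries.

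Genes whose normalized count averaged at least 10 were kept. Log2(normalized count + 1) was fitted with 8 group means in limma 3.58.1 (R 4.3.3, moderated with a trend), with Benjamini-Hochberg adjustment and a threshold of 0.01. The fit was also tried on simulated data (12406 genes), in which every gene had the same variability setting and no library stood apart. Only genes with a mean of at least 50 were changed. There it recovered 62 of 100 genes changed 2-fold and 100 of 100 changed 4-fold, with 0 false calls. In the measured data the standard error differed between genes, as with 0.10 for HLA-E and 1.25 for CCL2. The simulated shares therefore do not carry over to the measured genes. Positions are from GENCODE 44 (12297 tested genes matched).

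Members and the 26 gene lists (402 of 481 symbols tested) were chosen with earlier results of these data known. Named genes are ACLY, genes named in the study's text, the 20 largest rises and falls among called genes with at least 50 counts in the higher group and no overlap, called list members and those that define a list, genes called after LPS with an unadjusted p above 0.05 without it, and the largest differences from KO. Some genes that the rule names are not reported here. Same-numbered HA and WT libraries were not treated as pairs, since their correlations were -0.33, 0.35, 0.18 and 0.21. Alternatives were another scale, pseudocount or filter, library weights, the compared groups alone without and with a replicate block, voom, and each library left out.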

Additional observations from a re-analysis of the deposited data

Results flagged for a closer look

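Of 271 groups of 4 libraries examined over the named genes, 16 had 1 library so far from the other 3 that its gap to them, as a share of the group's range, passed the Dixon limit for 4 values. Chance flags about 1 in 20 groups. HA LPS replicate 1 was the library in 7 of the 16 and WT LPS replicate 3 also in 7.

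HA LPS replicate 1 was the highest of its group for IFITM3 (44493 counts, others up to 16956), IFI44 (571.9, up to 317), ACSS2 (336.4, up to 169) and FCER2 (168.2, up to 56.5). It was the lowest for LYZ (11112, others from 18595), ALOX5AP (153.1, from 271) and ZNF551 (105.6, from 191).

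WT LPS replicate 3 was the highest of its group for CCL3 (654.2 counts), CSF1R (636.6), TNFSF10 (501.8), APOC1 (146.6) and TLR7 (75.04). It was the lowest for SCD (771.5, others from 1668) and VAT1L (25.79, from 68.9). HLA-DRA was highest in HA LPS replicate 4 (4184), and CXCL11 lowest in WT LPS replicate 2 (204.6, others from 224).

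IFI44L differed between HA and KO cells after LPS by -1.338 on the log2 scale in the limma fit, a difference between lines that both differ from WT.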

How the results depend on the processing

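Of 86 named genes called between HA and WT after LPS, 54 kept their call without each single library, 32 lost it at least once, and 0 changed sign in any alternative. Calls were lost for 79 of the 86 with the replicate block on the compared groups alone, and for 33 with these groups and no block. Without HA LPS replicate 1 and WT LPS replicate 3 together, 35 were lost. Counts of called genes varied more. HA against WT after LPS gave 250 genes, 129 without HA LPS replicate 1 and WT LPS replicate 3 together (chosen after seeing the data), 1163 with library weights, 133 with the compared groups alone, 249 with voom on the recovered reads, and 155 to 226 with 1 library left out. Without LPS it gave 313 genes, 503 on the deposited scale (406 up), 2633 with weights, 196 with the groups alone and 187 to 283 with 1 library left out. HA against KO gave 1, with 60 on the deposited scale (58 up), 55 with weights, 14 with voom (added after seeing the data), 0 with no filter on low counts, 0 with the groups alone and 0 to 3 with 1 library left out. The LPS response in SA gave 61, with 181 with weights, 7 with the groups alone and 45 to 59 with 1 library left out. The interaction gave 0 throughout. The cause of these changes was not tested.

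The replicate number was used as a block in fits on the compared groups alone. The counts were then 7 for HA against WT after LPS, 8 without LPS, 0 against KO, 3 for the LPS response in SA and 0 for the interaction. Without the block, fits on the same groups alone gave 133, 196, 0, 7 and 0 in this order. The labels do not say what a number shares. Same-numbered HA and WT libraries after LPS correlated at -0.33 to 0.35, and not every library correlated best with its own number. Within WT, libraries with and without LPS correlated at 0.26 to 0.68, each best with its own number, a hint of pairing from the data. Within HA they correlated at -0.22 to 0.58 and within SA at -0.14 to 0.49. In both of these lines some libraries correlated better with another number. The edgeR and DESeq2 tests were not run. Depth limits genes with few counts, such as TLR4, LY96 and HLA-DQA1.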
